A study of Mus musculus with 6 samples.

Results

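Trp53 and 9 established target genes of the tumor suppressor p53 (Cdkn1a, Mdm2, Bbc3, Bax, Ccng1, Zmat3, Phlda3, Eda2r and Trp53inp1) were followed in D4M-3A mouse melanoma cells with and without a CRISPR-Cas9 construct against Nfkbiz. The 10 genes were taken from the tables by name, from a list written with earlier results of these data known. They are 10 of the 43043 genes in the tables, and all 10 were among the 14419 genes with enough reads to be tested. The 3 Ctrl samples had received an empty CRISPR-Cas9 construct by lentivirus, and the 3 Nfkbiz KO samples a CRISPR-Cas9 construct aimed at Nfkbiz, which encodes the nuclear protein IκBζ. Both groups were selected with puromycin and grew in RPMI-1640 medium with fetal calf serum. Samples of a condition came, per the study's methods, from independent experiments. Whether the cells were clones or pools is not given in the sources used here. Since the control construct is given as empty, with no guide named for it, cutting by Cas9 and loss of IκBζ cannot be told apart by this design. Whether both constructs had the same backbone is not given there either. D4M-3A is a line from a Braf-mutant mouse melanoma.

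p53, the product of Trp53, is a transcription factor that is held at a low level by the ubiquitin ligase Mdm2 and accumulates after DNA damage and other stress. It binds a DNA element made of paired decamers and raises genes that stop the cell cycle, repair DNA or start apoptosis. Mdm2 is itself such a target, which closes a negative feedback loop. In melanoma, p53 is often present without a mutation and is held in check by other changes, such as loss of the CDKN2A locus or high MDM2 or MDM4.

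Sequences near the start sites show where some of these genes carry letters close to the p53 element. Promoter windows of 300 bases, from 250 bases before to 50 bases after each start, came from RefSeq on GRCm38.p6 and covered 8 of the 10 genes with 11 windows. A match was a pair of adjoining decamers, at most 1 base apart, that kept the C and the G of both decamers and differed from the 20-base p53 consensus at no more than 3 other positions. The consensus reads the same on both strands, and capitals mark the matched element. In all, 5 of these genes had such a match, shown here with the bases beside it because p53 is known to read elements of this consensus. Binding of p53 to these stretches was not measured here.
Cdkn1a, chr17:29090923-29090952, plus strand, 1 mismatch: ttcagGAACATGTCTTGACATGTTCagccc
Ccng1, chr11:40755457-40755486, minus strand, 1 mismatch: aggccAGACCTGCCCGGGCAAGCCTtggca
Bax, chr7:45467075-45467103, minus strand, 2 mismatches and a spacer of 1 base: tcccAGGCAAGCTTTGAACTTGCGGcaat
Bbc3, chr7:16309481-16309510, plus strand, 3 mismatches: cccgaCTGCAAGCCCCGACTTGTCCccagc
Trp53, chr11:69580279-69580308, plus strand, 3 mismatches: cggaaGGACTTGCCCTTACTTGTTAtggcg

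Of all 32851 windows of this length, 928 (2.82%) held a match at up to 3 mismatches, 224 (0.682%) at up to 2 and 36 (0.11%) at up to 1. The Cdkn1a element lay 51 to 32 bases before the start site of its window and the Ccng1 element 195 to 176 bases before its own. Cdkn1a and Bbc3 had further windows at other start sites, and these held no match. They were chr17:29093519-29093818 for Cdkn1a, and chr7:16310011-16310310 and chr7:16310181-16310480 for Bbc3. No match was found in the windows of Mdm2, Phlda3 and Eda2r, which says only that these letters are not in those windows. Eda2r, which had the largest change of the 10 genes, is shown by the 250 bases before its start for that reason, and no capitals mark them because no match was found.
Eda2r, chrX:97377210-97377459, minus strand: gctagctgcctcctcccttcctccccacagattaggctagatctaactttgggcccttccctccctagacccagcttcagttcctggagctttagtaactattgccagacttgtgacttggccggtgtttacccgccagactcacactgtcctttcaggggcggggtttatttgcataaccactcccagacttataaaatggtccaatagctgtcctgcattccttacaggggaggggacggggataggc

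Samples held 32219900 to 44927203 gene reads, and TPM (a depth-scaled level per transcript length) was used to show levels. Nfkbiz itself was lower in every Nfkbiz KO sample, at 34.7 to 35.15 TPM against 63.45 to 75.2 TPM in Ctrl, a log2 fold change of -0.98, so part of its transcript remained. RNA reads do not measure the protein, for which the paper checked the D4M-3A knockout by immunoblot. Melanocyte markers were near 0 in both groups. Over 9 genes they summed to 1.11 to 1.74 TPM for Ctrl and 1.27 to 1.68 for the knockout. Sox10, Mlana, Tyr, Ednrb and Kit were listed at 0 TPM in all 6 samples, although Mlana held 0 to 3 gene reads per sample. The lineage named by the label therefore does not show in these markers. Markers of blood, endothelial and epithelial cells summed to 2.64 to 3.20 TPM in Ctrl, against 3.18 to 5.82 TPM in Nfkbiz KO. Of these 13 markers 3 could be tested, and the endothelial cadherin gene Cdh5 was higher (0.548 ± 0.139 TPM to 1.54 ± 0.313 TPM, SD, n = 3). The endothelial marker Pecam1 and the blood cell marker Cd68 were not called (log2 fold change -0.16 and 0.34). Kdr, also endothelial, held 0 to 9 reads per sample and was not tested. The defining markers Ptprc, Cd3e and Epcam held 0 to 6 reads per sample. Their part in the results was not tested.

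Of the 10 genes, 4 passed the test (edgeR quasi-likelihood, at 0.05 after Benjamini-Hochberg adjustment across the 14419 genes). Eda2r, Mdm2 and Bbc3 were higher and Ccng1 was lower in Nfkbiz KO. Across all genes tested, 36.6% passed, 18.2% higher and 18.4% lower, so 4 of 10 is a share near the background and is no result about p53 targets as a group. The median log2 fold change of the 10 genes was -0.0026, beside -0.015 for all genes tested. None of the 10 reached the study's threshold, which also asks for more than a 2-fold change and a difference above 4, taken here as 4 TPM because the methods name no unit. That threshold was passed by 1.79% of all genes tested. At an unadjusted p under 0.05, 0 of the 10 changed by more than 2-fold, and DESeq2 likewise gave 0. The read counts of Ctrl and Nfkbiz KO, scaled to library size as CPM, did not overlap for 4 of the 10 genes (Mdm2, Ccng1, Zmat3 and Eda2r), beside 48.4% of all genes tested. For a single gene, an exact two-sided permutation test of 3 against 3 samples cannot go below p = 0.1, and these 4 genes reached it.

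**Figure D1:**
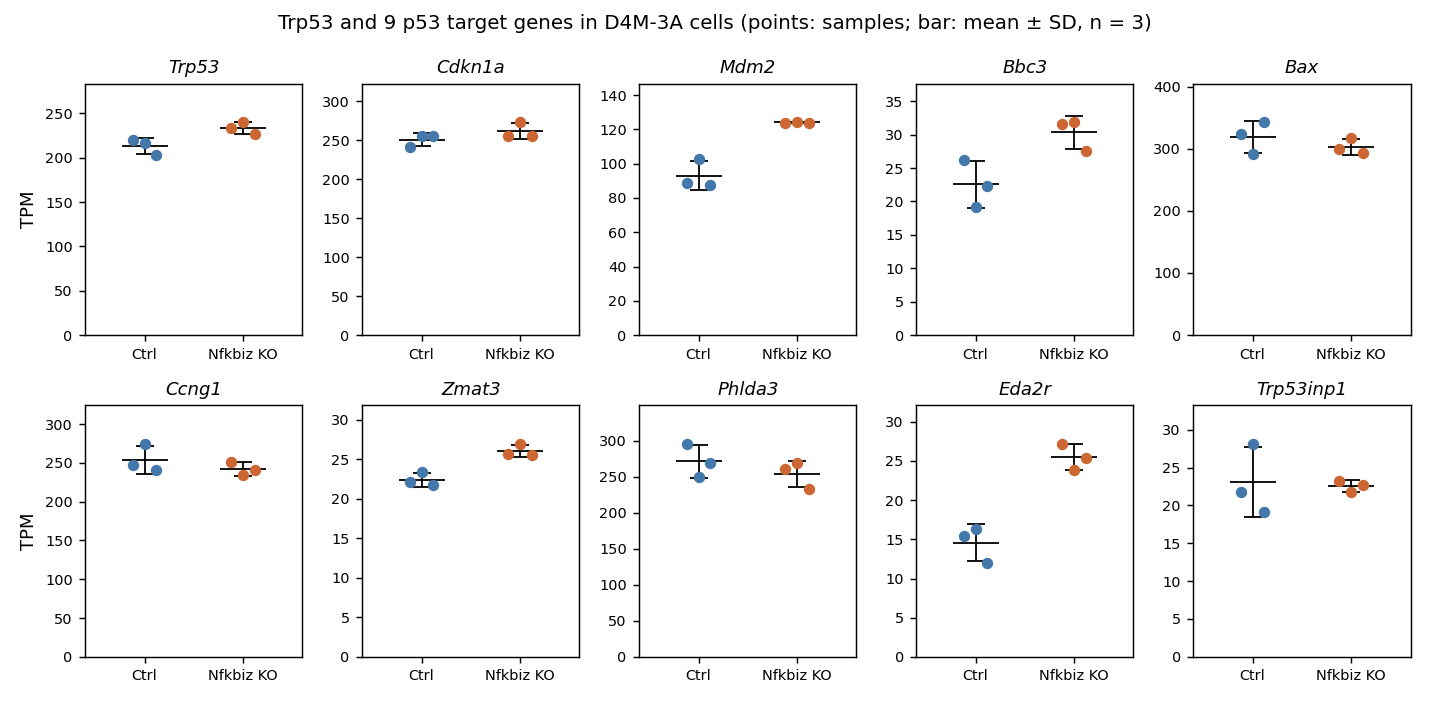
Level in TPM (vertical axes, each from 0) of Trp53 and 9 p53 target genes in the 3 Ctrl and 3 Nfkbiz KO samples, with points for samples and bars for the mean ± SD. Eda2r lay at 11.9 to 16.35 TPM in Ctrl and at 23.9 to 27.2 TPM in Nfkbiz KO, while Cdkn1a, Bax, Ccng1, Phlda3 and Trp53inp1 overlapped between the groups.

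Levels differed widely among the 10 genes. In Ctrl, Bax had the highest mean (319 TPM), followed by Phlda3 (271.5 TPM), Ccng1 (254 TPM), Cdkn1a (251 TPM) and Trp53 (213 TPM), whose ranges overlapped from one to the next except between Cdkn1a and Trp53. Mdm2 (92.9 TPM) stood below these, and Trp53inp1, Bbc3, Zmat3 and Eda2r lay between 14.6 and 23.0 TPM. Of the genes tested, 3.55% had a higher mean than Phlda3 in Ctrl, against 49.2% for Eda2r. Summed over the 10 genes, the level was 1473 to 1503 TPM in Ctrl, against 1474 to 1561 TPM in Nfkbiz KO.

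Trp53, at GRCm39 chr11:69469669-69482701 on the plus strand, encodes the transcription factor itself. Its level was 220.2, 216 and 203 TPM in the Ctrl samples and 233, 240.3 and 227 TPM in the Nfkbiz KO samples. The TPM values did not overlap, with all 3 Nfkbiz KO samples above all 3 Ctrl samples. Scaled to CPM, the read counts did overlap, at 275, 257.9 and 265.2 in Ctrl against 269.6, 282.1 and 265.8 in Nfkbiz KO. Unscaled, they were 9494, 9835 and 11229 reads against 8776, 11246 and 11974 reads. On read counts the log2 fold change was 0.035 (95% interval -0.080 to 0.15, adjusted p = 0.652 by edgeR quasi-likelihood with Benjamini-Hochberg adjustment), so no difference passed the test. TPM rests on exon reads and the counts on all reads of a gene. Over all genes tested, the median log2 difference was 0.06 on log2(TPM + 1) against -0.015 on counts, and each of the 10 genes lay higher in Nfkbiz KO on the TPM scale than on counts. Trp53 overlaps Wrap53 on the opposite strand over 1483 bases, 263 of them in exons of both genes. Counting without strand cannot tell reads from that stretch apart. Wrap53 had 435 to 752 reads per sample and was lower in Nfkbiz KO (log2 fold change -0.37).

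Mdm2 (GRCm39 chr10:117524780-117546730, minus strand), the ligase that marks p53 for degradation and is itself a p53 target, was one of the 3 genes that rose. Its level was 88.9, 103 and 87.3 TPM in the Ctrl samples and about 124 TPM in each of the Nfkbiz KO samples. Every Nfkbiz KO sample was above every Ctrl sample, and the Nfkbiz KO samples were closer together (SD 0.172 TPM) than the Ctrl samples (SD 8.42 TPM, n = 3 in both). The mean rose by 31.2 TPM, from 92.9 ± 8.42 to 124 ± 0.172 TPM. On read counts the log2 fold change was 0.30 (SE 0.055, adjusted p = 9.04e-04 by edgeR quasi-likelihood with Benjamini-Hochberg adjustment), or a 1.23-fold rise. The call held in all of the alternatives tried.

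Cdkn1a (GRCm39 chr17:29309936-29319701, plus strand) encodes the cyclin-dependent kinase inhibitor p21, the best known arrest target of p53. Its level was 242, 256 and 255 TPM in Ctrl, against 255, 273 and 256 TPM in Nfkbiz KO. The groups overlapped, and the log2 fold change on read counts was -0.040 (95% interval -0.17 to 0.087, adjusted p = 0.638 by edgeR quasi-likelihood with Benjamini-Hochberg adjustment). The value turned positive on log2(TPM + 1), at 0.059, and without Ctrl replicate 3, at 0.0076, neither of them past the threshold.

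Ccng1 (GRCm39 chr11:40639377-40646148, minus strand) encodes cyclin G1, which takes part in the Mdm2 feedback loop. It was the one gene of the 10 that was called lower. It had 247, 275 and 240.5 TPM in Ctrl, against 252, 234 and 241 TPM in Nfkbiz KO, which overlapped. Scaled to CPM, the reads were 260.4, 274 and 265 in Ctrl and 245, 230.0 and 238 in Nfkbiz KO, which did not overlap. The log2 fold change was -0.16 (SE 0.052, adjusted p = 0.027 by edgeR quasi-likelihood with Benjamini-Hochberg adjustment). The call was lost without Ctrl replicate 2 (adjusted p = 0.0682), without Nfkbiz KO replicate 1 (0.0631), 2 (0.14) or 3 (0.0975), on TPM (0.423) and with no filter on low counts (0.0509). Ccng1 overlaps Nudcd2 on the opposite strand over 3787 bases, 114 of them in exons of both genes. The change of Nudcd2 itself did not pass the test (log2 fold change -0.11).

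Eda2r (GRCm39 chrX:96320270-96420847, minus strand), a receptor of the TNF family that p53 raises, changed most. Its level was 15.5, 16.35 and 11.9 TPM in Ctrl, against 27.2, 23.9 and 25.3 TPM in Nfkbiz KO. The groups did not overlap, and Nfkbiz KO was higher by 10.9 TPM in the means (14.6 ± 2.34 to 25.5 ± 1.65 TPM, SD, n = 3). The log2 fold change was 0.72 (SE 0.089, adjusted p = 4.97e-05 by edgeR quasi-likelihood with Benjamini-Hochberg adjustment), or 1.65-fold. Of all genes tested, 11.01% changed by more in absolute log2 terms. Leaving out each library in turn gave 0.61 to 0.78, and the call held in every alternative. It was the only one of the 10 to pass a looser threshold of 1.5-fold at a p of 0.1, which was applied here to the adjusted p although the study does not say whether its own was adjusted.

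**Figure D2:**
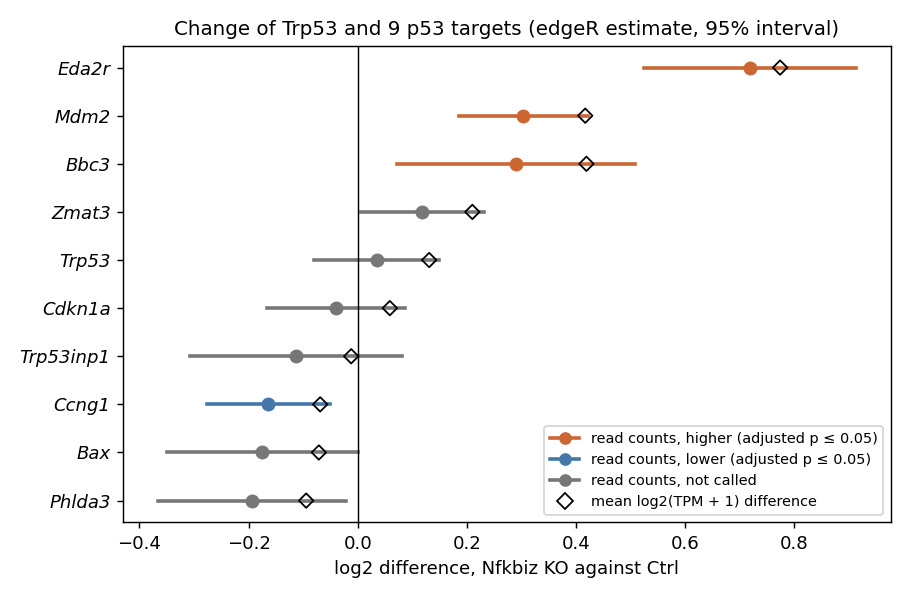
Log2 difference of each gene between Nfkbiz KO and Ctrl (horizontal axis), with circles and bars for the edgeR estimates and 95% intervals on read counts, orange where called higher, blue where called lower and grey where not called, and diamonds for the mean difference on log2(TPM + 1). Eda2r stood at 0.72, Mdm2 at 0.30 and Bbc3 at 0.29, and the other 7 genes lay between -0.19 and 0.12.

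Bbc3 (GRCm39 chr7:16042318-16052130, plus strand) encodes PUMA, which starts apoptosis at the mitochondria. Its level was 26.2, 19.2 and 22.3 TPM in Ctrl, against 31.6, 31.9 and 27.5 TPM in Nfkbiz KO. TPM values did not overlap, although the CPM values did, since 1 Nfkbiz KO sample lay below the highest Ctrl sample (20.2 CPM). The log2 fold change was 0.29 (SE 0.10, adjusted p = 0.0382 by edgeR quasi-likelihood with Benjamini-Hochberg adjustment). The call was lost without Ctrl replicate 2 (adjusted p = 0.0998), Nfkbiz KO replicate 1 (0.112) or 2 (0.162), on TPM (0.0583) and with upper-quartile scaling.

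Bax (GRCm39 chr7:45111015-45116325, minus strand), which forms the pore in the mitochondrial membrane, did not pass the test. It had 323, 291 and 343 TPM in Ctrl, against 300.2, 317 and 292 TPM in Nfkbiz KO, with overlapping groups. On counts it differed by -0.17 on the log2 scale (95% interval -0.35 to 0.00077, adjusted p = 0.113 by edgeR quasi-likelihood with Benjamini-Hochberg adjustment). Without Ctrl replicate 2, its lowest Ctrl sample, the value was -0.26 and the test was passed (adjusted p = 0.00669), as it was with no filter on low counts (0.0333). Without Ctrl replicate 3, its highest Ctrl sample, the value was -0.083 (adjusted p = 0.328), and on log2(TPM + 1) it was -0.071.

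Phlda3 (GRCm39 chr1:135693809-135697686, plus strand), a p53 target that restrains the survival kinase AKT, overlapped between groups too. Its level was 296, 250.1 and 269 TPM in Ctrl, against 260.3, 268.5 and 233 TPM in Nfkbiz KO. On counts the log2 difference was -0.19 (SE 0.079, adjusted p = 0.0748 by edgeR quasi-likelihood with Benjamini-Hochberg adjustment), and without Ctrl replicate 2 it was -0.27 (adjusted p = 0.00576). The test was also passed with upper-quartile scaling (0.0398) and with no filter on low counts (0.016). Without Ctrl replicate 1 the value was -0.13 (adjusted p = 0.274), and on log2(TPM + 1) it was -0.094.

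Trp53inp1 (GRCm39 chr4:11156412-11175230, plus strand), whose product promotes autophagy and the apoptotic side of p53, had 21.8, 28.1 and 19.2 TPM in Ctrl, against 23.3, 21.8 and 22.6 TPM in Nfkbiz KO. The spread among Ctrl samples (SD 4.61 TPM) exceeded the difference of the means. The log2 fold change was -0.11 (adjusted p = 0.362 by edgeR quasi-likelihood with Benjamini-Hochberg adjustment). It was 0.021 without Ctrl replicate 2 and -0.21 without Ctrl replicate 3, where it passed (adjusted p = 0.036).

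Zmat3 (GRCm39 chr3:32388941-32420163, minus strand), an RNA-binding protein that p53 induces and that shapes splicing, lay at 22.15, 23.3 and 21.7 TPM in Ctrl, against 25.7, 26.95 and 25.6 TPM in Nfkbiz KO. The groups did not overlap on either scale. The log2 fold change on counts was 0.12 (95% interval 0.0054 to 0.23, adjusted p = 0.0962 by edgeR quasi-likelihood with Benjamini-Hochberg adjustment), which missed the threshold. On log2(TPM + 1) it was 0.21 and passed (adjusted p = 0.0213).

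The rest of the pathway was read from lists that hold 36 other p53 targets, 26 regulators of p53, 12 BCL-2 family genes, 17 cyclins, cyclin-dependent kinases and their inhibitors, and 20 genes of the S and G2/M phases. Of the other targets, 35 were tested and 17 called, 10 higher and 7 lower, with a median log2 fold change of 0.041. Of the regulators, 11 of 23 were called, 7 higher and 4 lower. The BCL-2 family gave 6 of 10, the cyclins and kinases 7 of 15 and the phase genes 4 of 20. The share called over all genes tested was 36.6%. Without Nfkbiz KO replicate 1 the count of other targets fell to 11. The calls over all genes fell too in that fit, to 3803 of 14848 from 5274 of 14419.

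**Figure D3:**
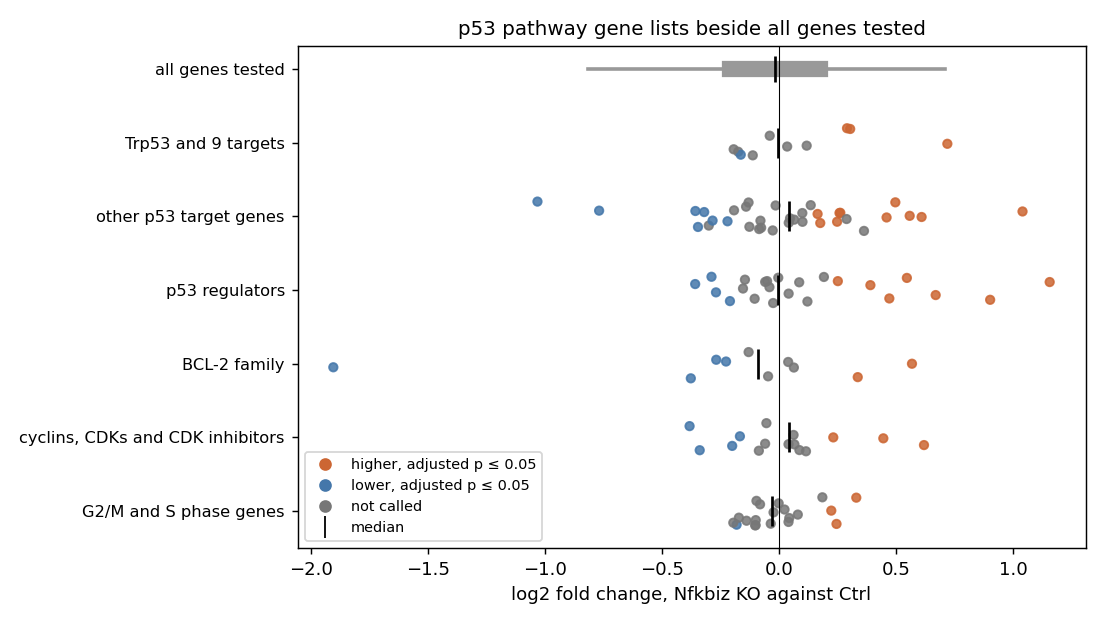
Log2 fold change of Nfkbiz KO against Ctrl (horizontal axis) for the genes of each pathway list (points, orange where called higher, blue where called lower, grey where not called) and for all genes tested (grey bar from the 25th to the 75th percentile, line from the 5th to the 95th), with black ticks at the medians. The medians of the lists lay between -0.088 and 0.041, close to -0.015 for all genes tested.

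Among the other targets, Fas, the death receptor gene, fell from 19.6 ± 1.31 to 10.3 ± 0.981 TPM (SD, n = 3), with 18.2, 19.7 and 20.8 TPM in Ctrl against 11.4, 9.55 and 10.0 TPM in Nfkbiz KO. Its log2 fold change was -1.03, and it was the only one of these 35 targets past the study's threshold. It lay close to the 2-fold limit. Without Ctrl replicate 3 the value was -0.997 and on log2(TPM + 1) it was -0.86, both short of 2-fold. Steap3, a metalloreductase, rose from 3.08 to 6.77 TPM (log2 fold change 1.04). It missed the study's threshold only by its difference of 3.69 TPM, against the 4 TPM assumed here. Dcxr, an enzyme of sugar metabolism, fell from 52.7 to 33.4 TPM. Gdf15, a stress-induced cytokine, rose from 17.8 ± 0.383 to 27.35 ± 3.07 TPM. Groups did not overlap for any of these 4 genes, and their calls held in every alternative tried, with adjusted p from 1.16e-06 (Fas) to 0.00144 (Gdf15) by edgeR quasi-likelihood with Benjamini-Hochberg adjustment.

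Other targets were called too, named here after the values were seen. Ephx1 (log2 fold change 0.56), Ninj1 (0.46), Polk (0.26), Tigar (0.26), Rrm2b (0.25) and Aen (0.18) were higher. Lif (-0.36), Triap1 (-0.35), Thbs1 (-0.32), Plk2 (-0.28) and Gadd45a (-0.22) were lower. By the same test, adjusted p was 5.55e-06 for Ephx1, 1.61e-04 for Ninj1 and 1.73e-04 for Lif, below Gdf15. How they fared under the alternatives is not given here. Sfn and Sesn2 lost their calls in some alternatives. Sfn, which encodes an arrest protein of the G2 phase, was higher (log2 fold change 0.61, adjusted p = 0.0189 by edgeR quasi-likelihood with Benjamini-Hochberg adjustment), but missed the threshold on TPM and without Ctrl replicate 1 (0.0568), Nfkbiz KO replicate 1 (0.0737) or 2 (0.0893). Sesn2, a stress-induced brake on growth signaling, had a log2 fold change of 0.16 and lost its call without Ctrl replicate 1 or 2 or Nfkbiz KO replicate 1 or 2 (adjusted p up to 0.222). Ppm1d, a phosphatase that turns p53 off, did not pass (log2 fold change -0.015, adjusted p = 0.902) and turned positive on log2(TPM + 1), at 0.12. Pmaip1, the apoptosis gene known as Noxa, did not pass at -0.30 (adjusted p = 0.0706) but did with upper-quartile scaling (0.0477).

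Regulators moved in both directions. Ppp1r13b, a partner that steers p53 toward apoptosis genes, rose from 1.49 to 3.995 TPM (log2 fold change 1.16). Atm, the kinase that activates p53 after DNA breaks, rose from 13.2 ± 3.31 to 26.4 ± 0.972 TPM (log2 fold change 0.90). Daxx, a chaperone that binds Mdm2, rose from 84.96 ± 3.82 to 145 ± 0.917 TPM (log2 fold change 0.67). By edgeR quasi-likelihood with Benjamini-Hochberg adjustment, the adjusted p was 9.26e-04 for Ppp1r13b, 4.08e-05 for Atm and 5.74e-07 for Daxx, and the 3 calls held in every alternative tried. Sirt1 (log2 fold change 0.55), Atr (0.47), Crebbp (0.39) and Trim24 (0.25) were also called higher. They were named after the values were seen, and how they fared under the alternatives is not given here.

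Mdm4, the relative of Mdm2 that also restrains p53, did not pass (log2 fold change 0.12, adjusted p = 0.159). It passed without Ctrl replicate 2 (0.19, adjusted p = 0.0179), and without Ctrl replicate 3 its value was 0.060. The 4 regulators called lower, chosen for naming after the values were seen, were Rpl11 (log2 fold change -0.36), Ppp1r13l (-0.29), Rpl5 (-0.27) and Chek2 (-0.21). Rpl5 and Rpl11 are ribosomal proteins that bind Mdm2. Of those calls, Rpl11 held when each library was left out in turn. That of Chek2 was lost under DESeq2 (adjusted p = 0.104) and without Nfkbiz KO replicate 3 (0.123), among others. Rpl5 reached 0.0689 without Nfkbiz KO replicate 2 and Ppp1r13l 0.121 without Nfkbiz KO replicate 3. Cdkn2a, which encodes the Mdm2 inhibitor Arf, had 0 reads in all 6 samples, and the p53 relatives Trp63 and Trp73 had at most 16 and 1 reads, so these 3 genes were not tested.

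In the BCL-2 family, Bid and Bok, both of which promote apoptosis, were higher (log2 fold change 0.57 and 0.34), and Bmf, Bcl2l11, Bcl2 and Bad were lower (-1.90, -0.38, -0.27 and -0.23). Bid, Bok, Bcl2l11 and Bad were chosen for naming after the values were seen. Bmf, a pro-apoptotic member, was at a low level, 1.20 ± 0.166 TPM for Ctrl against 0.332 ± 0.0502 TPM for Nfkbiz KO (SD, n = 3). Bcl2, which protects cells from apoptosis, lost its call in 5 of the 6 fits without 1 library (adjusted p up to 0.0816) and on TPM (0.522), Bok without Nfkbiz KO replicate 2 (0.0579) and Bad without Nfkbiz KO replicate 3 (0.0667). Bcl2l1, Mcl1 and Bak1, the further partners of Bax and Bbc3 that were examined, did not pass on counts, with log2 fold changes of -0.13, -0.047 and 0.039. On log2(TPM + 1) Bak1 passed (0.14, adjusted p = 0.0119), Mcl1 turned positive (0.045) and Bcl2l1 lay at -0.0077, the latter pair without passing.

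Among the cyclins and kinases, Cdk6 rose from 17.2 ± 1.41 to 28.65 ± 0.322 TPM (log2 fold change 0.62), and Ccnd2 and Ccnd1, its cyclin partners, by 0.45 and 0.23 on the log2 scale. Cdkn2c, Cdkn1b, Ccnd3 and Cdk4 were lower (-0.38, -0.34, -0.20 and -0.17). All but Cdk6 were chosen for naming after the values were seen. The calls of Ccnd3 and Cdk4 were lost in 4 of the 6 fits without 1 library each, with adjusted p up to 0.0814 and 0.12. Cdkn2c and Cdkn1b encode kinase inhibitors. Cdk2, the kinase that p21 binds, and Pcna, another p21 partner, did not pass (-0.086 and -0.059), and both turned positive on log2(TPM + 1) (0.012 and 0.038).

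Of the S and G2/M phase genes, Mcm2, E2f1 and Foxm1 were higher (0.33, 0.25 and 0.22) and Ccnb2 was lower (-0.18), all 4 named after their values were seen. The replication gene Mcm2 and the transcription factor gene E2f1 kept their calls when each library was left out. Foxm1 missed without Nfkbiz KO replicate 1 (adjusted p = 0.0607), and Ccnb2 without 5 of the 6 libraries in turn (up to 0.168). The count of called phase genes was 8 without Ctrl replicate 2 and 2 without Nfkbiz KO replicate 1. Over all genes tested, the same fits called 5533 of 14793 and 3803 of 14848.

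**Figure D4:**
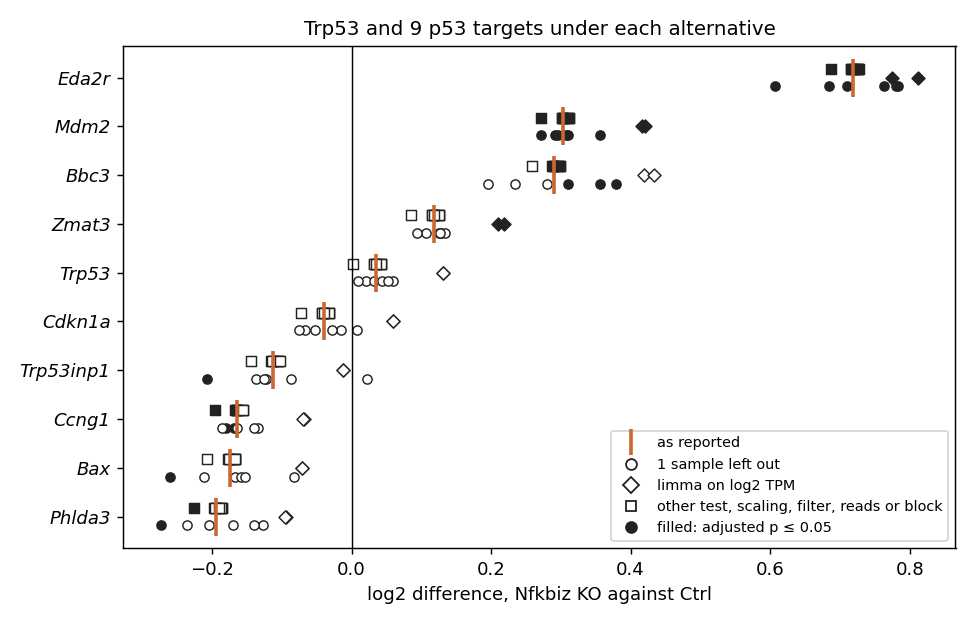
Log2 difference of Trp53 and 9 p53 target genes (horizontal axis) in the reported fit (orange line), with 1 library left out (circles), with limma on log2 TPM (diamonds) and under the other alternatives (squares), filled where the adjusted p was 0.05 or less. Eda2r (0.61 to 0.81 over all of them) and Mdm2 (0.27 to 0.42) stayed above 0 and passed the test throughout, while Cdkn1a and Trp53inp1 crossed 0.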

How the data were processed

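RNA of 3 Ctrl and 3 Nfkbiz KO samples was compared. The authors sequenced paired reads and mapped them with CLC Genomics Workbench, without using strand and with up to 10 hits per read. The paper names GRCm39, whereas the submitters' processing notes name GRCm38. The authors deposited raw counts of total and unique gene reads (96.5% to 96.9% unique) and TPM from exon reads, with decimal commas that were converted. The paper states a two-tailed test for all experiments. Gene coordinates came from GENCODE on GRCm39.

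Total gene reads were tested with edgeR 4.0.16 in R 4.3.3 (TMM, filterByExpr with a minimum count of 10, quasi-likelihood test, Benjamini-Hochberg adjustment over 14419 genes). Called means an adjusted p of 0.05 or less. A total of 3 reads equals 0.0668 to 0.0931 CPM, a limit that covers counting error only. Alternatives were DESeq2 1.42.0, the likelihood-ratio test, other scalings and filters, unique reads, limma 3.58.1 on TPM, the replicate number as a block, and leaving out each library. On simulated counts, 62 of 99 genes changed 1.5-fold and 94 of 96 changed 3-fold were recovered. In that run 9 unchanged genes were called, and 8 genes in a run without any change. The simulation changed few genes and gave both groups the same spread, unlike these data. Its shares therefore do not measure the recovery in these data. Within groups no pair of samples agreed within counting noise. Chi-squared per degree of freedom, a measure of that scatter, was 25.8 to 65.9 for pairs of Ctrl samples. For pairs of Nfkbiz KO samples it was 3.41 to 5.89. The test fitted a spread shared by both groups. The p-values measure the spread between these samples.

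The 10 genes and the lists were chosen with earlier results of these data known. Named genes are these 10, Nfkbiz, genes of the other lists that were called at a fold change of 1.5 or more (at most 6 per list) at a mean of 1 TPM or more, and 14 regulators or partners. Others are marked in the text.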

Additional observations from a re-analysis of the deposited data

How the results depend on the processing

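The limits are the 3 samples per group, counts that ignore strand, and TPM that takes only exon reads. Over all genes, 3798 to 5638 genes were called, and limma on log2(TPM + 1) called 3004 higher and 1327 lower (69.4% higher) against 2627 and 2647 (49.8% higher) on counts. With the replicate block, 5087 genes were called, of which 4945 were shared, and 4 of the 10 genes were called as before. The numbers share only a label, with correlations of deviations of -0.014 to 0.051. Sesn2, Chek2 and Ccnb2 lost their calls under the block.

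Leaving out 1 library gave 2 to 5 called genes of the 10, 11 to 17 other p53 targets and 2 to 8 phase genes. The calls over all genes moved in the same fits. They ranged from 3798 of 14684 genes tested (without Nfkbiz KO replicate 3) to 5533 of 14793 (without Ctrl replicate 2). Under the looser threshold (1.5-fold, adjusted p up to 0.1), 1 of the 10 genes passed. On log2(TPM + 1) and log2(TPM + 0.1), the direction turned for Cdkn1a (0.0589 and 0.0591), Mcl1 (0.0451 and 0.0454), Pcna (0.0383 and 0.0384), Cdk2 (0.0117 and 0.0121) and Ppm1d (0.1175 and 0.124). None of these passed the threshold. Leaving out 1 library in turn gave -0.0751 to 0.0076 for Cdkn1a, -0.2065 to 0.0215 for Trp53inp1 and -0.0552 to 0.0182 for Ppm1d, and the cause was not tested. Of the values of single genes, 699 kept direction and side of the threshold, 75 lost the call and 12 gained it.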

Other observations

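Neighbours of Cdkn2a on chromosome 4 were looked at after the 0 reads of that gene had been seen. Cdkn2b likewise had 0 reads in all 6 samples, Mtap had 26401 to 35483 reads and Dmrta1 had 126 to 225 reads. The values are given with no explanation.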
